A study of Homo sapiens with 24 samples.

Results

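The small heat shock proteins, the BAG co-chaperones and the heat shock factors were followed as 10 genes, chosen by symbol from the count matrix: HSPB1, HSPB8 and CRYAB, BAG1, BAG2, BAG3, BAG4 and BAG5, and HSF1 and HSF2. They are 10 of 18915 genes counted and 10 of the 12685 genes that passed the expression filter. Cells of the human hepatoma line HepG2 were exposed for 10 h to DMSO as vehicle (DMSO), 50 nM ISRIB (ISRIB), 20 µM nelfinavir (Nelf), 50 nM bortezomib (Btz), bortezomib and nelfinavir together at those doses (BtzNelf), or bortezomib and ISRIB together at those doses (BtzISRIB). There were 4 libraries for each of these 6 conditions, and the submitters describe them as biological replicates. All cells are of a single line, so the values describe that line and not hepatocytes of a person.

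Bortezomib blocks the proteasome, nelfinavir is an HIV protease inhibitor known to activate the integrated stress response, and ISRIB blocks that response at the level of translation initiation. When the proteasome is inhibited, misfolded proteins occupy the cytosolic chaperones, and HSF1, the master transcription factor of the heat shock response, is released to bind heat shock elements, which are arrays of short inverted repeats in the promoters of chaperone genes. Small heat shock proteins hold unfolded clients without using ATP, and BAG proteins dock on HSP70 through their BAG domain and promote release of nucleotide and client. BAG1 is known for linking HSP70 to the proteasome, whereas BAG3, often with HSPB8, is known for routing clients to autophagy.

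Promoter sequence was available for 7 of the 10 genes, from the RefSeq table on GRCh38.p14, as windows of 300 bases from 250 before to 50 after the start of a transcript. CRYAB, BAG4 and HSF1 have no window in that table. A pair of adjoining inverted heat shock units (GAANNTTC or TTCNNGAA, either strand, which read the same on both) was present in 3 of the 7 genes, HSPB1, HSPB8 and BAG2. By window that was 3 of 9 (33.3%), against 13.5% of all 34943 windows. Arrays of 3 adjoining units were in none of the 9 windows of these genes and in 0.489% of all windows. The C/EBP-ATF motif TGATGNAA was in 0 of the 9 and in 3.62% of all. In the heat shock response list described further on, 14 of 20 genes with a window held the pair and 8 held 3 units. By window these were 44.1% and 23.5% of 34. A match of letters is a description and not a binding site, and no match says only that these letters are not in the window.

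The 250 bases before the start are shown for the 3 genes with a pair of units, and for BAG3 because it had the largest fold change with bortezomib among the 9 genes with counts in DMSO, but no such pair. They are written 5′ to 3′ on the strand of the gene, with the pair in capitals. HSPB1 is from chr7:76302423-76302672, HSPB8 from chr12:119178681-119178930, BAG2 from chr6:57172076-57172325 and BAG3 from chr10:119651130-119651379, all on the plus strand of GRCh38.p14.
HSPB1: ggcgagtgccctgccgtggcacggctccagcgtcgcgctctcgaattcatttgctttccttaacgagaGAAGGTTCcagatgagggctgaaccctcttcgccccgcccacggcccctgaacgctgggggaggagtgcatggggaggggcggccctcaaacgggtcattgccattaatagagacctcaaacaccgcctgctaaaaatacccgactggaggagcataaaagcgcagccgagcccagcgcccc
HSPB8: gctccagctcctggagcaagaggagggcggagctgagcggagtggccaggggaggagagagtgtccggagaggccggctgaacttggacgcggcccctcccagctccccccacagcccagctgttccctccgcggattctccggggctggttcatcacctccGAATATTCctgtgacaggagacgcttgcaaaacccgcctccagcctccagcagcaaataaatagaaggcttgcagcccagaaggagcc
BAG2: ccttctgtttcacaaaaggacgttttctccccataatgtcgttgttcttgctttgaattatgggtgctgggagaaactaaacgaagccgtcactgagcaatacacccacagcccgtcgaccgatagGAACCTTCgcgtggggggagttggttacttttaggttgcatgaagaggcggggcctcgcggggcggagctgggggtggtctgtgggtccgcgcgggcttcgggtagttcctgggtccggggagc
BAG3: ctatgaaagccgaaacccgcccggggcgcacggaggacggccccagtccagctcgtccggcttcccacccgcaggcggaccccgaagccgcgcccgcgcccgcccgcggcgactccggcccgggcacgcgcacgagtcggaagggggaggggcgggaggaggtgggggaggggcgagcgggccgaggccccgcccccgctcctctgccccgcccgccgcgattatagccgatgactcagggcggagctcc
The pair ended 175 bases before the start in HSPB1, 81 bases before it in HSPB8 and 117 bases before it in BAG2. HSPB8 held another pair that began 4 bases and ended 11 bases after the first base of the transcript, which is not shown. The G and C content of the 250 bases was 61.6% in HSPB1, 63.6% in HSPB8, 57.6% in BAG2 and 78.0% in BAG3.

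Libraries held 5154533 to 6943164 counts on genes. Values are given as CPM, counts scaled to a common library total with TMM factors. The kit reads only the 3′ end of a transcript, so a CPM value does not scale with transcript length. Hepatocyte markers were all present (9 of 9 in the matrix, summed 6730 to 14600 CPM), and of 9 markers of other cell types 5 were in the matrix, with COL1A1, COL3A1 and DES at or near 0 and most of the sum on ACTA2. The hepatocyte sum was lower with bortezomib (6730 to 11000 CPM, against 12200 to 14600 CPM without it) and the other sum mostly higher, with some overlap (52.1 to 109 CPM, against 29.9 to 55.4 CPM). The share of counts on mitochondrial genes was also higher with bortezomib, at 24.9% to 40.2% against 18.0% to 23.2%. The part of these shifts in the results below was not tested. In bulk RNA, fewer cells of a kind and less RNA per cell cannot be told apart.

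Libraries of a group did not all lie equally close together. Across 6436 well-expressed genes the log2 CPM of BtzNelf replicates 1 and 2 correlated at 0.98, as did replicates 3 and 4, whereas the 4 pairs across correlated at 0.96 to 0.97, and BtzISRIB replicate 3 correlated with the others of its group at 0.95 to 0.96. No label gives a batch. The called changes of the 10 genes and the heat shock list in these groups are therefore also given without those libraries, and those of other genes are given for all libraries.

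Bortezomib alone raised 7 of the 10 genes and lowered BAG4 (edgeR quasi-likelihood test, adjusted p under 0.05 over all genes tested). Of the 9 genes with counts in DMSO, BAG3 rose the most, 10.3-fold, followed by HSPB1 at 6.07-fold and CRYAB at 5.6-fold. HSPB8 went from no counts to detection, after scaling 11.5-fold above a floor of 3 counts over the DMSO group. It passed the expression filter only through libraries with bortezomib, so its place among the 7 is not separate from that selection. HSF2, BAG2 and HSF1 rose by 2.17, 1.99 and 1.62-fold, and BAG1 and BAG5 did not pass the test. In the same comparison 27.6% of all genes tested were called higher and 25.8% lower. The median log2 fold change of the 9 genes other than HSPB8 was 1.00, against 0.002 for all genes.

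HSPB1 encodes the most widely expressed small heat shock protein and lies on chromosome 7 (75931990 to 75933612, plus strand, GRCh37). It was at 102, 95.5, 83.2 and 77.9 CPM in the 4 DMSO libraries and at 624, 535, 515 and 504 CPM in Btz. Every Btz library was thus far above every DMSO library, and the log2 fold change was 2.60 (SE 0.140, edgeR adjusted p = 7.89e-17). The last 500 bases of its transcripts hold a stretch of 256 bases with 97.3% identity to the processed pseudogene HSPB1P1, so that an uncertain part of its reads could be shared.

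HSPB8, the small heat shock protein that forms a complex with BAG3, lies on chromosome 12 (119609360 to 119662660, plus strand, GRCh37). It had 0 counts in all DMSO and all Nelf libraries and 1 count in the ISRIB libraries together. In Btz it had 6, 2, 1 and 12 counts, so that each library with bortezomib alone held at least 1 count, at 0.211 to 2.59 CPM. A floor of 3 counts over the whole DMSO group bounds the DMSO side only. Against that floor its level was 11.5-fold higher in Btz (edgeR adjusted p = 0.0059). Even so the gene stayed among the low ones, at a mean of 1.12 CPM. Counts of this size carry a large counting error, and intervals on them cover counting error only because the reads are not known to be separate molecules. HSPB8 passed the expression filter only through libraries with bortezomib. Its calls against DMSO, Nelf or ISRIB, here and below, are not separate from that selection.

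CRYAB encodes alpha-B crystallin, a small heat shock protein of lens and muscle, and lies on chromosome 11 (111779288 to 111794446, minus strand). It had 2, 9, 3 and 9 counts in DMSO and 11, 33, 24 and 13 counts in Btz. As CPM, the DMSO libraries ended at 1.17 and the Btz libraries began at 2.35, with a log2 fold change of 2.49 (SE 0.473, edgeR adjusted p = 4.09e-05). Its 95% interval, from 1.52 to 3.45, was the widest among the 9 genes with a fitted change.

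BAG3, on chromosome 10 (121410892 to 121437331, plus strand), was at 30.1, 29.8, 33.4 and 31.2 CPM in DMSO. In Btz it was at 347, 309, 301 and 329 CPM. Every Btz library was far above every DMSO library, and the log2 fold change was 3.37 (SE 0.220, edgeR adjusted p = 1.2e-14). The gene moved from 4316th to 361st place among the 12685 genes by mean CPM.

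BAG2, a co-chaperone known to inhibit the ubiquitin ligase STUB1, lies on chromosome 6 (57037124 to 57054631, plus strand). It was at 36.6, 31.9, 36.9 and 39.2 CPM in DMSO and 72.0, 66.9, 85.5 and 64.2 CPM in Btz, again with no overlap. The log2 fold change was 1.00 (SE 0.130, edgeR adjusted p = 8.1e-08).

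BAG4, known for silencing the TNF receptor, lies on chromosome 8 (38034051 to 38070819) and was the only gene of the 10 to fall with bortezomib alone. It was at 25.1, 24.2, 29.0 and 27.9 CPM in DMSO and within a narrow 13.6 to 14.8 CPM in the 4 Btz libraries. That is 0.528 of the DMSO level, a log2 fold change of -0.92 (SE 0.141, edgeR adjusted p = 1.38e-06). A stretch of 136 bases at its 3′ end has 98.5% identity to a transcript of another gene, which has no symbol.

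BAG1, on chromosome 9 (33247818 to 33264718, minus strand), was at 27.8 to 32.7 CPM in DMSO and 28.9 to 37.0 CPM in Btz, and BAG5, on chromosome 14 (104022882 to 104028994, minus strand) and built of several BAG domains, at 24.8 to 31.5 and 26.4 to 38.01 CPM. The ranges overlapped for both genes. Their log2 fold changes were 0.20 (95% interval -0.05 to 0.44) and 0.16 (-0.13 to 0.45), with edgeR adjusted p of 0.168 and 0.367. The direction of these 2 genes rests on the scaling: with library totals in place of TMM factors, which puts the median of all genes at -0.495 on the log2 scale in this comparison, BAG1 was at -0.30 and BAG5 at -0.34, both called lower. That scaling called 6 of the 10 genes higher and 3 lower, against 7 and 1, and among all genes 1490 higher and 6265 lower, against 3500 and 3274.

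HSF1, on chromosome 8 (145515273 to 145538383, plus strand), was at 28.9, 26.9, 34.7 and 30.4 CPM in DMSO and 54.9, 45.8, 43.9 and 51.0 CPM in Btz. HSF2, a related factor that can form trimers with HSF1, lies on chromosome 6 (122720696 to 122754264, plus strand). It was at 24.4, 26.2, 29.4 and 29.0 CPM in DMSO and 56.2, 65.3, 64.4 and 50.1 CPM in Btz. Neither gene had overlapping groups. The log2 fold changes were 0.69 (SE 0.137, edgeR adjusted p = 6.44e-05) and 1.12 (SE 0.132, edgeR adjusted p = 1.16e-08). With library totals alone HSF1 was at 0.20 and lost its call (edgeR adjusted p = 0.228), whereas HSF2 kept it at 0.62.

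**Figure D1:**
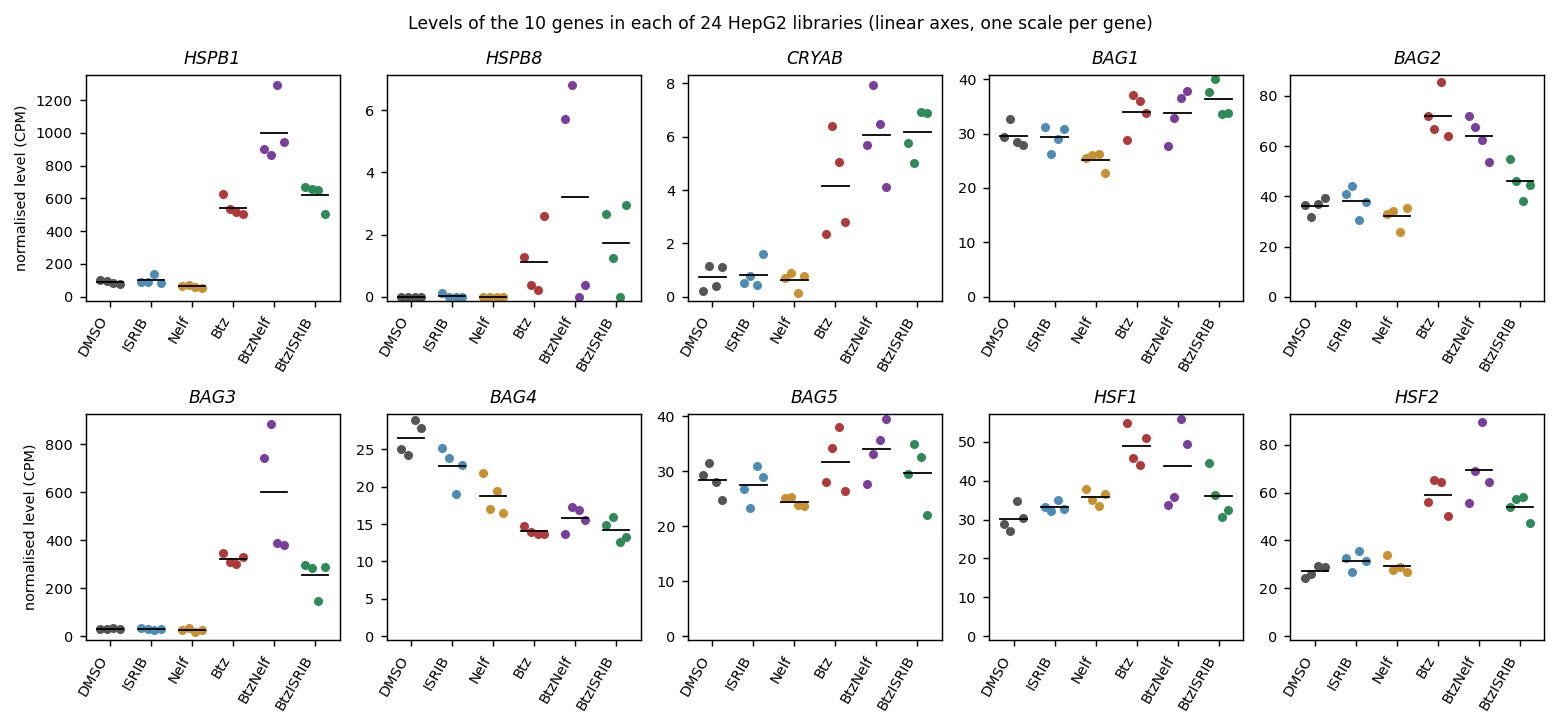
Normalised level in CPM of each of the 10 genes in the 24 libraries, 1 panel a gene on a linear axis that starts at 0, with points for libraries in replicate order and a bar for the group mean. HSPB1 and BAG3 rose from means of 89.7 and 31.1 CPM in DMSO to 545 and 321 CPM in Btz, BAG4 fell from 26.5 to 14.01 CPM, and BAG3 in BtzNelf splits into replicates 1 and 2 (742 and 883 CPM) and replicates 3 and 4 (390 and 380 CPM).

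Some of these genes share their 3′ end with a gene on the other strand: SPINK4 at BAG1, RAB23 at BAG2, DGAT1 at HSF1 and a long noncoding RNA at BAG5. The kit keeps the strand, but no source used here states whether the counting did, and reads of such neighbours cannot be told apart from those of the named gene.

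Nelfinavir alone lowered 2 of the 10 genes and raised none, where 8.84% of all genes tested were called lower and 10.4% higher. HSPB8 had 0 counts in both groups and could not be tested. HSPB1 was at 65.1, 73.4, 60.3 and 52.9 CPM in Nelf, below every DMSO library, with a log2 fold change of -0.51 (SE 0.138, edgeR adjusted p = 0.0072). BAG4 was at 21.9, 17.0, 19.5 and 16.5 CPM, likewise below every DMSO library, with a log2 fold change of -0.50 (SE 0.132, edgeR adjusted p = 0.00554). Both calls held under each alternative run. BAG3 ranged from 17.4 to 34.3 CPM, across the DMSO range, and was not called (log2 fold change -0.29, edgeR adjusted p = 0.429). HSF1 stood at 33.6 to 37.9 CPM and HSF2 at 26.7 to 34.0 CPM, also overlapping DMSO. The median log2 fold change of the 9 genes was -0.21, against 0.007 for all genes.

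ISRIB alone changed none of the 10 genes, and 0% of all genes tested were called. No member had an unadjusted p under 0.05 in edgeR, against 702 of all genes. DESeq2 gave an adjusted p here only for HSPB1 and BAG3 and called neither, so it could not call the others. The fitted log2 fold changes of the 9 genes other than HSPB8 lay between -0.22 for BAG4 and 0.21 for HSF2, and the ranges of ISRIB and DMSO overlapped for every one. HSPB1 in ISRIB replicate 3, at 137 CPM, stood above the other 3 ISRIB libraries, which were at 84.2 to 92.2 CPM.

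**Figure D2:**
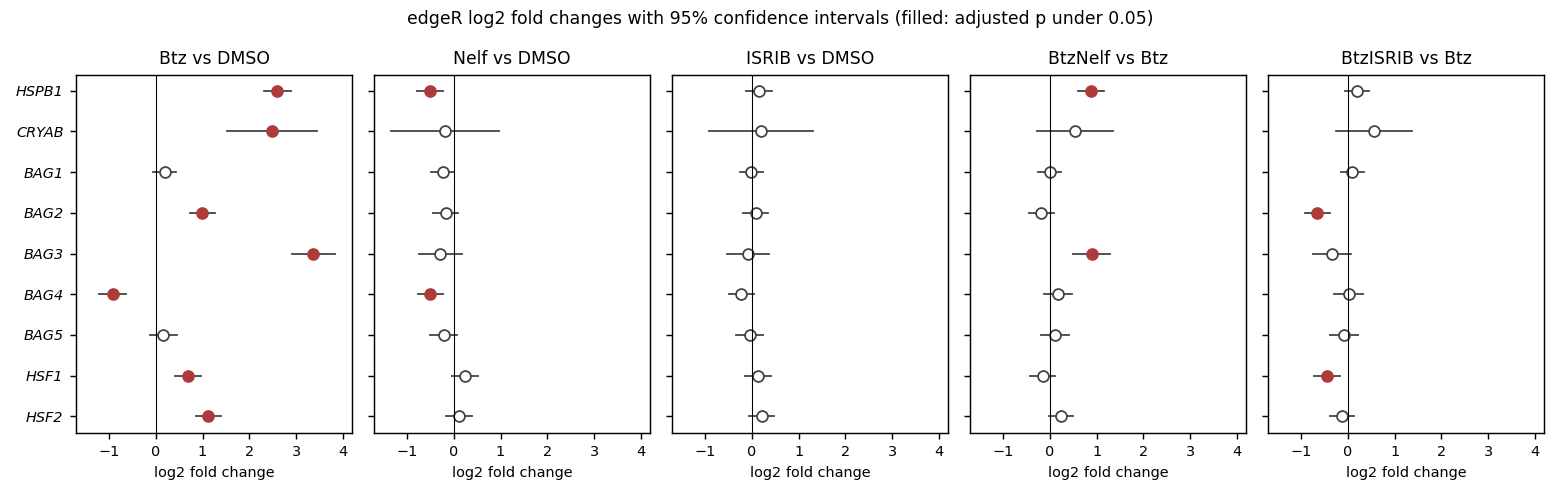
Log2 fold change (x axis) of 9 genes in 5 comparisons from the edgeR fit, with 95% confidence intervals as lines and filled points where the adjusted p is under 0.05. HSPB8 is left out because it has 0 counts in DMSO. Bortezomib moved 7 of the 9 genes, from -0.92 for BAG4 to 3.37 for BAG3, ISRIB alone moved none, and the changes on adding nelfinavir or ISRIB to bortezomib were within 0.90 in size.

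Adding nelfinavir to bortezomib raised HSPB1 and BAG3 above their level with bortezomib alone, by 1.84 and 1.86-fold, and changed no other of the 10 genes past the test. In this comparison 15.6% of all genes tested were called higher and 13.4% lower. HSPB1 was at 900, 867, 1294 and 945 CPM in BtzNelf, all above the 504 to 624 CPM of Btz, with a log2 fold change of 0.88 (SE 0.131, edgeR adjusted p = 4.32e-06). BAG3 was at 742, 883, 390 and 380 CPM, also all above Btz, with a log2 fold change of 0.90 (SE 0.195, edgeR adjusted p = 0.000685). For BAG3 the size depended on the libraries: without replicates 1 and 2 it was 0.31 (edgeR adjusted p = 0.156), and without replicates 3 and 4 it was 1.35 (edgeR adjusted p = 8.84e-08). For HSPB1 the same omissions gave 1.09 and 0.71, both called.

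The 2 pairs of BtzNelf libraries differed gene by gene and not in a single direction. BAG3 averaged 813 CPM in replicates 1 and 2 and 385 CPM in replicates 3 and 4, a ratio of 2.11. HSPB8 had 27 and 30 counts in replicates 1 and 2, and 0 and 2 in replicates 3 and 4. HSF1 went the other way, with 33.8 and 35.9 CPM in replicates 1 and 2 against 55.8 and 49.5 CPM in replicates 3 and 4, and so did HSPB1, whose means were 883 and 1120 CPM. BAG1 and BAG5 were also higher in replicates 3 and 4, by 1.23 and 1.24 times, and BAG2 lower, while CRYAB, BAG4 and HSF2 overlapped between the pairs. This split was noticed in the data and is given without a test.

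**Figure D3:**
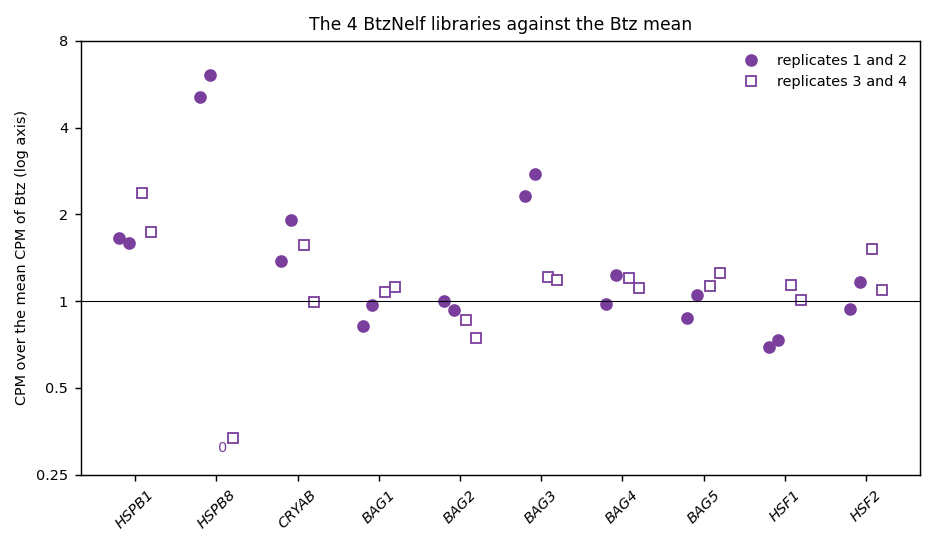
CPM of each gene in the 4 BtzNelf libraries divided by its mean in Btz, on a log axis, with filled circles for replicates 1 and 2 and open squares for replicates 3 and 4. HSPB1 lies above 1 in all 4 libraries, BAG3 and HSPB8 are higher in replicates 1 and 2, and HSF1 is higher in replicates 3 and 4. HSPB8 had 0 counts in replicate 3, marked as 0.

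With replicates 3 and 4 left out, HSPB8 was called higher than in Btz (edgeR adjusted p = 0.0244) and HSF1 lower, at -0.48 (edgeR adjusted p = 0.0194), whereas with replicates 1 and 2 left out HSF2 was called higher, at 0.43 (edgeR adjusted p = 0.0225), as it was without replicate 1 alone, at 0.38 (edgeR adjusted p = 0.0297). Over all 4 libraries these were not called. HSPB8 had 59 counts in BtzNelf against 21 in Btz, a ratio of 2.76 (95% counting interval 1.65 to 4.78), with an edgeR adjusted p of 0.221. HSF1 ranged from 33.8 to 55.8 CPM and HSF2 from 55.6 to 89.7 CPM in BtzNelf, across the Btz range.

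Seen against nelfinavir alone, BtzNelf was higher for 8 of the 10 genes and lower for none, with 28.7% of all genes called higher and 28.4% lower. BAG3 was 23.5-fold higher and HSPB1 15.9-fold higher. HSPB8, with 59 counts against 0, was 31.7-fold above a floor of 3 counts in the Nelf group, although BtzNelf replicate 3 had none. Without replicates 1 and 2 HSPB8 was not called (edgeR adjusted p = 0.155). CRYAB was at 9.28-fold, HSF2 at 2.38-fold and BAG2 at 1.99-fold. Without replicates 1 and 2 the log2 fold change was 3.92 for BAG3, 4.15 for HSPB1, 3.03 for CRYAB, 1.4 for HSF2 and 0.85 for BAG2, and without replicates 3 and 4 it was 4.96, 3.77, 3.35, 1.05 and 1.08, all called. BAG1 and BAG5 were called at 1.35 and 1.39-fold, but with library totals alone they were at -0.08 and -0.03 on the log2 scale and not called, and without replicates 3 and 4 neither passed. BAG4 (log2 fold change -0.24, edgeR adjusted p = 0.147) and HSF1 (0.29, edgeR adjusted p = 0.0637) were not called. Without replicates 1 and 2, or without either of them, HSF1 was called, at 0.39 to 0.56, and BAG4 was called lower with upper-quartile factors (-0.34) and with library totals alone (-0.75).

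The change that nelfinavir brought with bortezomib differed from the change it brought without it for 3 of the 10 genes, by the interaction term of the same fit, where 19.7% of all genes tested were called. HSPB8, with 0 counts in DMSO and Nelf, could not be tested for this term. The term was 1.39 for HSPB1 on the log2 scale (SE 0.191, edgeR adjusted p = 1.82e-06), 1.19 for BAG3 (SE 0.297, edgeR adjusted p = 0.0042) and 0.68 for BAG4 (SE 0.199, edgeR adjusted p = 0.0138). HSPB1 fell by 0.51 with nelfinavir in the absence of bortezomib and rose by 0.88 in its presence. BAG4 fell by 0.50 without bortezomib, while with it the value was 0.18 and not called. Without BtzNelf replicates 1 and 2 the BAG3 term was 0.60 and no longer called (edgeR adjusted p = 0.0587), whereas HSPB1 and BAG4, at 1.60 and 0.76, were called. Without replicates 3 and 4 the terms were 1.64 for BAG3, 1.22 for HSPB1 and 0.66 for BAG4, all called, and with all libraries numbered 3 left out the BAG4 term was 0.61 (edgeR adjusted p = 0.0746). The HSF1 term was -0.40 (edgeR adjusted p = 0.146), and it was called without BtzNelf replicates 3 and 4, at -0.72, and with all libraries numbered 3 left out, at -0.68.

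Adding ISRIB to bortezomib lowered BAG2 and HSF1 and raised none of the 10 genes, while 5.34% of all genes tested were called lower and 6.89% higher. BAG2 was at 55.0, 46.1, 38.3 and 44.6 CPM in BtzISRIB, all below the 64.2 to 85.5 CPM of Btz. Its log2 fold change was -0.65 (SE 0.132, edgeR adjusted p = 0.000871). It was called under every alternative, between -0.75 and -0.48, and was at -0.57 without BtzISRIB replicate 3.

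HSF1 was at 44.5, 36.4, 30.7 and 32.6 CPM in BtzISRIB against 43.9 to 54.9 CPM in Btz, so that 1 library overlapped. Its log2 fold change was -0.44 (SE 0.139, edgeR adjusted p = 0.034). This call was lost on leaving out any of Btz replicates 1, 2 and 4 or of BtzISRIB replicates 2, 3 and 4, with the value between -0.47 and -0.37, and in a fit of only these 8 libraries (edgeR adjusted p = 0.0711). BAG3 was at 296, 283, 146 and 290 CPM in BtzISRIB, all below the 301 to 347 CPM of Btz, but the change of -0.34 was not called (edgeR adjusted p = 0.272). Without BtzISRIB replicate 3, at 146 CPM, it was -0.15. With no expression filter it was called, at -0.35 (edgeR adjusted p = 0.0116). HSPB1 (507 to 672 CPM), CRYAB (24 to 33 counts) and HSF2 (47.1 to 58.1 CPM) overlapped Btz and were not called.

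HSPB8 had 12, 6, 0 and 12 counts in BtzISRIB, the 0 being in replicate 3. Its 30 counts against 21 in Btz gave a ratio of 1.52 (95% counting interval 0.84 to 2.79).

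Set against ISRIB alone, BtzISRIB was higher for 6 of the 10 genes and lower for BAG4, with 29.1% of all genes called higher and 25.6% lower. BAG3 was 8.67-fold, CRYAB 7.19-fold and HSPB1 6.21-fold higher, and HSF2 1.72-fold. HSPB8 had 30 counts against 1, a ratio of 51.0 with a 95% counting interval from 8.49 to 2080. BAG4 was at 0.624 of its ISRIB level. Without BtzISRIB replicate 3 the log2 fold change was 3.25 for BAG3, 2.72 for CRYAB, 2.55 for HSPB1, 0.69 for HSF2 and -0.68 for BAG4, and these and HSPB8 were still called, whereas BAG1 was not (edgeR adjusted p = 0.0725). BAG1 was called at 1.24-fold (edgeR adjusted p = 0.0308) but not by DESeq2 (adjusted p = 0.0691), and it was at -0.23 on the log2 scale with library totals alone. BAG2 and HSF1, which rose with bortezomib alone, were at 0.26 (edgeR adjusted p = 0.0946) and 0.12 (edgeR adjusted p = 0.496) here. With library totals alone HSF1 was at -0.42 and called lower, BAG5 likewise at -0.42, and HSF2, at 0.24, lost its call.

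The interaction of ISRIB and bortezomib was called for 1 of the 10 genes, BAG2, and for 4.82% of all genes tested. The BAG2 term was -0.73 (SE 0.185, edgeR adjusted p = 0.0151), so that the rise of 1.00 with bortezomib alone stood beside 0.26 in the presence of ISRIB. Over the alternatives it ranged from -0.83 to -0.65, with adjusted p from 0.00224 to 0.0454, and it was -0.66 without BtzISRIB replicate 3. The HSF1 term was -0.58 (SE 0.194) with an edgeR adjusted p of 0.0811, and it passed with DESeq2 (adjusted p = 0.0382), in a fit of only the 4 groups concerned (edgeR adjusted p = 0.0436) and without BtzISRIB replicate 1 (edgeR adjusted p = 0.0463). For HSPB1 the term was 0.03 (95% interval -0.35 to 0.42) and for BAG3 -0.25 (-0.86 to 0.35).

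Ordered by mean CPM, HSPB1 stood at 1001 in BtzNelf, 621.5 in BtzISRIB, 544.5 in Btz, 100.2 in ISRIB, 89.7 in DMSO and 62.9 in Nelf, and neighbours overlapped only between BtzISRIB and Btz and between ISRIB and DMSO. BAG3 followed the order BtzNelf, Btz, BtzISRIB (599, 321 and 254 CPM) with no overlap, and then DMSO, ISRIB and Nelf (31.1, 29.2 and 25.4 CPM), which overlapped. BAG2 ran from 72.2 CPM in Btz through 63.8 in BtzNelf and 46.0 in BtzISRIB to 32.1 in Nelf, each step overlapping the next. HSF2 had a single gap, between 54.1 CPM in BtzISRIB and 31.6 CPM in ISRIB. For HSF1, BAG4 and BAG5 every neighbour overlapped, with means from 30.2 to 48.9, 14.01 to 26.5 and 24.5 to 34.0 CPM. CRYAB and HSPB8 each had 1 gap, between Btz (4.16 and 1.12 CPM) and ISRIB, and BAG1 had 1 between ISRIB (29.3 CPM) and Nelf (25.1 CPM). For HSPB8 the libraries on either side of the gap, Btz replicate 3 and ISRIB replicate 1, held 1 count each and differed only by scaling.

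A pair of quantities needs no scaling between libraries. The first is the percentage of all BAG1 to BAG5 counts of a library that were on BAG3. It was 20.0%, 19.9%, 21.5% and 20.7% in DMSO, and 70.7%, 67.0%, 63.5% and 70.5% in Btz. BAG3 thus made up most BAG counts in every Btz library, 67.9% ± 3.41 against 20.5% ± 0.732 (SD, n = 4 each; two-sided exact permutation p = 0.0286, the smallest that 4 against 4 can give, adjusted p = 0.0952 over 10 tests). In BtzNelf it was 84.0%, 85.4%, 72.0% and 72.2%, all above Btz (exact permutation p = 0.0286, adjusted p = 0.0952), with the lowest 2 from replicates 3 and 4. In BtzISRIB it was 68.4%, 67.4%, 55.6% and 71.8%, across the Btz range (exact permutation p = 0.714, adjusted p = 0.771), and the difference in means went from -2.13 to 1.28 percentage points without replicate 3. Nelf, with 15.4% to 25.1%, and ISRIB, with 18.9% to 20.9%, overlapped DMSO (exact permutation adjusted p = 0.771 and 0.327).

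The second is the log2 ratio of HSF2 to HSF1 counts. In DMSO it was -0.25, -0.04, -0.24 and -0.07, and in Btz 0.03, 0.51, 0.55 and -0.02. The Btz libraries lay above all DMSO libraries, at means of 0.27 ± 0.306 against -0.15 ± 0.109 (SD, n = 4 each; exact permutation p = 0.0286, adjusted p = 0.0952). It averaged 0.68 in BtzNelf and 0.59 in BtzISRIB, both overlapping Btz (exact permutation adjusted p = 0.286 for each). With 10 tests and 4 libraries a group, no comparison of either quantity passed an adjusted p of 0.05.

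**Figure D4:**
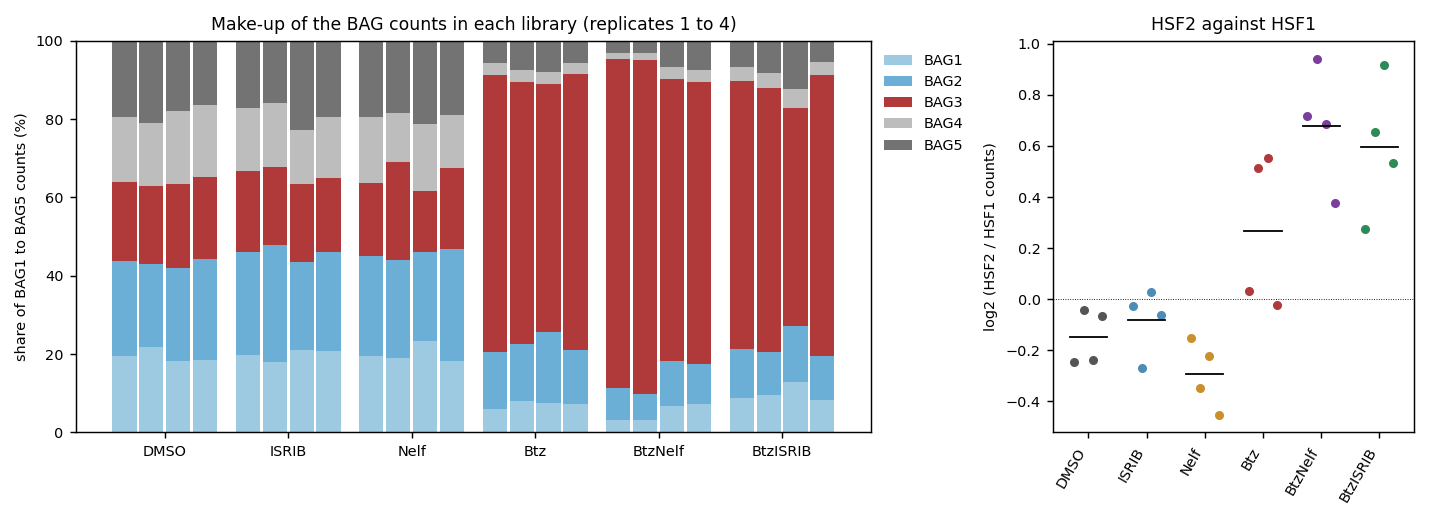
Left, percentage of the BAG1 to BAG5 counts on each gene in every library, stacked in the order of the legend and grouped by condition. Right, log2 ratio of HSF2 to HSF1 counts, with points for libraries and bars for group means. BAG3 took 18.9% to 21.5% in DMSO and ISRIB and 63.5% to 70.7% in Btz, and the HSF ratio rose from a mean of -0.15 in DMSO to 0.27 in Btz.

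The wider heat shock response was followed in a list of 22 further chaperone, co-chaperone and ubiquitin genes. The list was written from general knowledge, but with earlier results of these data known. All 22 were called higher with bortezomib, where 27.6% of all genes were, at a median log2 fold change of 1.48 against 0.002 for all genes. HSPA6, a stress-induced HSP70 gene, had 184 counts in Btz and 0 in DMSO, 101-fold above a floor of 3 counts in the DMSO group. The middle of the list was AHSA1 at 1.58 and HSP90AB1 at 1.38, and its lowest member was HSPE1, the mitochondrial co-chaperonin, at 0.27, which turned to -0.23 and was called lower with library totals alone (19 called higher and 1 lower in all). BAG3 and HSPB1, at 3.37 and 2.60, were above the middle genes, and BAG2 and HSF1, at 1.00 and 0.69, below them.

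With nelfinavir alone 14 of the 22 were called lower and 2 higher, at a median of -0.35, where 8.84% of all genes were called lower and 10.4% higher. With nelfinavir added to bortezomib 20 were called higher and 1, HSPA8, lower, at a median of 0.75, where 15.6% of all genes were called higher and 13.4% lower. Without BtzNelf replicates 1 and 2 this was 19 higher and 1 lower, and without replicates 3 and 4 it was 20 higher and 0 lower. HSPB1, at -0.51 and 0.88, was called in the same directions, and BAG3, at 0.90, in the second. HSPA6 had 5034 counts in BtzNelf, a ratio of 26.9 to Btz. The nelfinavir interaction was called higher for 19 of the 22 and lower for none, at a median of 0.98, and for 17 without BtzNelf replicates 3 and 4, beside 19.7% of all genes called in either direction. HSPA6 had 0 counts in DMSO and in Nelf. It could not be tested for this interaction or for nelfinavir alone, and is counted as not called in both. ISRIB added to bortezomib gave 2 higher and 4 lower at a median of -0.13, or 3 in all without BtzISRIB replicate 4 and 4 without replicate 3, where 6.89% of all genes were called higher and 5.34% lower. Its interaction gave 2 lower, DNAJA1 and HSPA4, and 0 or 1 called with no filter, without number 3 in all groups and without most of the single libraries concerned. Comparisons that share Btz libraries are not independent of each other.

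**Figure D5:**
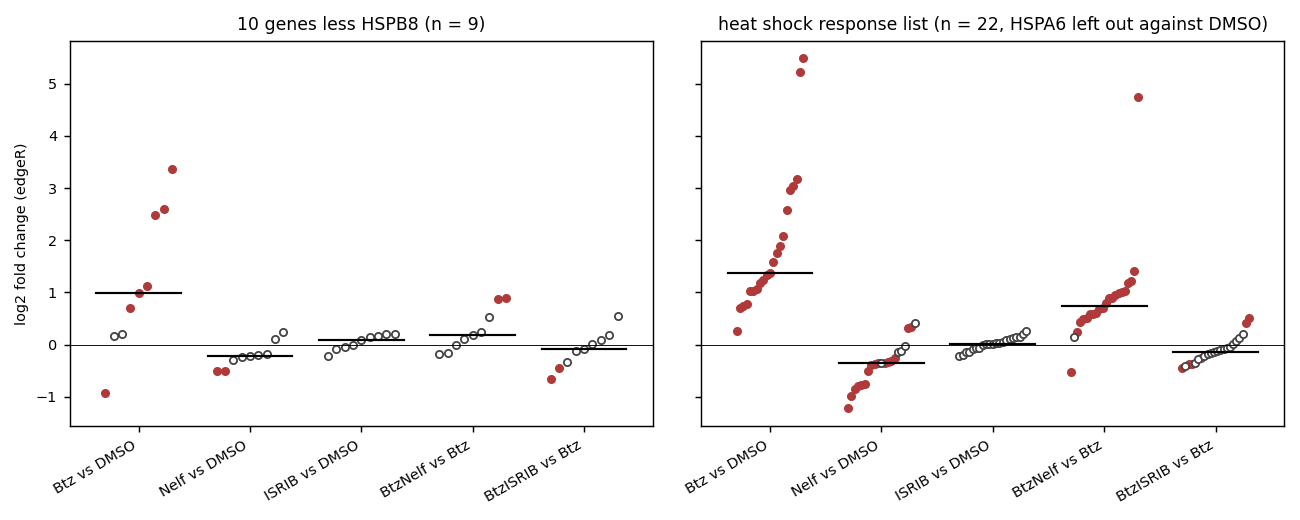
Log2 fold changes from the edgeR fit in 5 comparisons, for 9 of the 10 genes (left) and for the heat shock response list (right), with filled points for adjusted p under 0.05 and a bar for the median of the points drawn. Genes with 0 counts in DMSO, HSPB8 and HSPA6, are left out there. All list genes lie above 0 in Btz vs DMSO, most lie below 0 in Nelf vs DMSO, and none is filled in ISRIB vs DMSO.

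Of 11 further family relatives 8 were in the matrix and 5 passed the filter. BAG6, the large BAG protein of the tail-anchored protein pathway, was at 51.6 CPM in DMSO and 70.1 CPM in Btz (log2 fold change 0.44, edgeR adjusted p = 0.000242), a call that was lost, at -0.06, with library totals alone. CRYAA, the alpha-A crystallin, was at 193 CPM in DMSO, where its partner CRYAB was at 0.731 CPM, and at 197 CPM in Btz (log2 fold change 0.03, edgeR adjusted p = 0.832, and -0.47 with library totals alone). In Nelf it was at 261 CPM (0.43, edgeR adjusted p = 0.00121). HSBP1, a small protein that binds HSF1, was at 109 CPM in DMSO and 93.8 CPM in Btz (-0.22, edgeR adjusted p = 0.0607, and called at -0.71 with library totals alone). It was higher in BtzISRIB than in Btz, at 120 CPM (0.36, edgeR adjusted p = 0.0133), as was CRYAA, at 244 CPM (0.31, edgeR adjusted p = 0.0331). HSPB6 and HSF4 averaged at most 1.01 and 1.62 CPM in any group and were called in no comparison.

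Among 7 partners of BAG3 in client handling and autophagy, 6 were tested, and with bortezomib 4 were called higher and STUB1, the ubiquitin ligase of HSP70 clients, lower, at -0.63, where 27.6% of all genes were called higher and 25.8% lower. The autophagy gene MAP1LC3B was highest at 2.96, and DNAJB6 and YWHAG, at 1.59 and 1.19, were in the middle. With ISRIB added to bortezomib, where 5.34% of all genes were called lower, 4 of the 6 fell, MAP1LC3B by 0.47, YWHAG by 0.36, the autophagy receptor SQSTM1 by 0.33 and DNAJB6 by 0.30. Nelfinavir alone raised 3 of the 6, MAP1LC3B by 1.47, SQSTM1 by 1.01 and DNAJB6 by 0.36, where 10.4% of all genes were called higher. With nelfinavir added to bortezomib, DNAJB6 rose by 0.33 and SQSTM1 and YWHAG fell by 0.29 and 0.42. In that comparison 15.6% of all genes were called higher and 13.4% lower. The nelfinavir interaction was called for SQSTM1 at -1.31 and MAP1LC3B at -1.44, beside 19.7% of all genes. For ISRIB the interaction was called for DNAJB6 at -0.51 and YWHAG at -0.52, beside 4.82% of all genes.

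The genes whose log2 CPM ran most alike over the 24 libraries were looked up for the 8 genes with a mean of at least 10 CPM. HSPB1 was closest to HSPA1A (Pearson r = 0.989), HSP90AA1 and DNAJB1 (0.988 each), and BAG3 to HSPA1B (0.979), RAB21 (0.978) and HSPA1A (0.977). HSF2 was closest to FXR1 (0.967), HSP90AB1 (0.964) and KDM2A (0.963), and BAG2 to NOP58 (0.942), CCT4 (0.929) and EWSR1 (0.924). BAG4 was closest to MALT1 (0.932). The nearest genes of BAG1 (RUSC1, HMGA1 and TPM3), BAG5 (EDRF1, POM121C and HNRNPUL1) and HSF1 (RNH1, MRPS5 and VAPB) were less close, at 0.782 to 0.859. These libraries share 6 treatments, and after group means were removed r was lower in every pair, at 0.13 for HSPB1 with HSPA1A, 0.80 for BAG3 with RAB21, 0.71 for HSF2 with FXR1 and 0.76 for BAG5 with EDRF1.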

How the data were processed

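HepG2 3′ mRNA-Seq (QuantSeq FWD) was analysed in 24 libraries, 4 per condition, grouped by the treatment in the labels. The authors trimmed reads with cutadapt 2.8, aligned them to hg19 with STAR in an nf-core workflow and deposited raw read counts per gene on Ensembl GRCh37 annotation, without normalization. Which program counted the reads, with what strand setting, and whether molecular identifiers were used is not given in the sources used here.

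Genes were kept by filterByExpr at a count of 5 and a total of 25, counts were scaled by TMM and tests were run in edgeR 4.0.16 (R 4.3.3) by quasi-likelihood in 1 model of all 24 libraries, with Benjamini-Hochberg adjustment over all genes. The study used DESeq2, here an alternative (1.42.0). SEs are the log2 fold change over the root of F, and log2 CPM used a prior count of 2. Depth was 5154533 to 6943164 counts. BAG3 shares and HSF ratios (0.5 added to each count) were tested by exact permutation in Python 3.11.15. Scripts were tested on simulated data. Copies were sought with BLAST 2.17.0 (the last 500 bases, at least 80 aligned at 97% identity). Coordinates on GRCh37 are from GENCODE.

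The 10 genes, lists and rules were chosen with earlier results of these data known. Named are all 10 genes, the highest, lowest and middle list genes with bortezomib, every relative tested, and the 3 most alike genes per member (for BAG4 the closest, since not all are reported here). List genes named for other comparisons were chosen after their values were seen. The alternatives were RLE and upper-quartile factors, library totals, no filter, edgeR's default filter, a replicate block, only the groups compared, DESeq2, BAG6 in the BAG share and each library left out. Added after seeing the data were leaving out pairs of BtzNelf libraries or every number 3, and removing mitochondrial counts.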

Additional observations from a re-analysis of the deposited data

Results flagged for a closer look

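In 3 of 69 groups of 4 libraries tested for a library apart from the rest by Dixon's ratio, a library stood out, and chance flags about 1 in 20 groups. HSPB1 was at 136.5 CPM in ISRIB replicate 3, against 84.2 to 92.2 CPM in the other 3 libraries. HSPB1 was at 506.6 CPM in BtzISRIB replicate 4, against 651 to 672 CPM in the others. BAG3 was at 146.4 CPM in BtzISRIB replicate 3, against 283 to 296 CPM in the others.

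The effect of a second drug differed with and without bortezomib, by the interaction term of the edgeR fit, for 4 genes. Of the 10 genes, 3 were called for nelfinavir and 1 for ISRIB, where 19.7% and 4.82% of all genes tested were called. HSPB1 had a term of 1.39 on the log2 scale for nelfinavir, BAG3 1.19 and BAG4 0.68. BAG2 had a term of -0.73 for ISRIB. The terms for HSPB1 and BAG2 kept their direction and call under every alternative run, while those for BAG3 and BAG4 each lost theirs once, BAG3 without BtzNelf replicates 1 and 2 (0.60) and BAG4 without all libraries numbered 3 (0.61).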

How the results depend on the processing

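Of 88 pairs of gene and comparison, 66 kept their side of the threshold and, where called, their direction under every alternative counted. Alternatives that gave a gene no adjusted p were not counted, such as DESeq2 for most of the 10 genes in ISRIB against DMSO. Library totals alone gave the 7 changes of sign in which a call was involved: with bortezomib against DMSO BAG1 at -0.30 and BAG5 at -0.34, in BtzNelf against Nelf BAG1 at -0.08 and BAG5 at -0.03, and in BtzISRIB against ISRIB BAG1 at -0.23, BAG5 at -0.42 and HSF1 at -0.42. By construction that setting moved the median of all genes, by -0.495 with bortezomib against DMSO. The number of the 10 genes called on adding ISRIB to bortezomib was 2, and 3 with no filter, 1 in a fit of only the groups compared or with number 3 left out in all groups, and 1 to 2 with single libraries left out. For the ISRIB interaction it was 1, and 2 with DESeq2 or only the groups compared, and 1 to 2 with single libraries left out. On adding nelfinavir to bortezomib it was 2, and 4 (3 higher, 1 lower) without BtzNelf replicates 3 and 4. The cause of these changes was not tested.

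After group means were removed, same-numbered libraries of different groups correlated above 0.1 in 21 of 60 pairs, at a median r of 0.016. Those with other numbers did so in 39 of 180 pairs, at a median r of -0.002. No label says that a number marks a shared culture, and whether the numbers pair the libraries was not tested. A replicate block left the counts of the 10 genes called as they were in all 9 comparisons (8 with bortezomib against DMSO), and called 6835 of all genes there against 6774. Depth limits HSPB8 (at most 30 counts a library) and CRYAB (at most 35), and 4 libraries a group limit the exact tests to p of 0.0286 or more.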
